A study of Homo sapiens with 16 samples.

Results

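The binding of INTS13 was set against that of HDGF in HEK293T cells kept without glucose, to see at how many places both proteins were found, how close their summits lay and which end of a gene each marked. The members are all peaks on chromosomes 1 to 22, X and Y in the deposited INTS13 and HDGF starvation lists. They comprise 15639 INTS13 peaks and 68138 HDGF peaks, 83777 of the 327678 peaks in the 5 lists of the series. A further 7 INTS13 and 17 HDGF peaks on other sequences were left out.

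Chromatin immunoprecipitation with paired-end reads of 150 bp was done in wild type HEK293T, a single established human embryonic kidney line. The starved group of each protein was kept for 24 h in glucose-free medium, and the INTS13 and HDGF antibodies of these groups both came from Proteintech. The control pair used below came from wild type cells given a control depletion, with an INTS13 antibody from Bethyl Laboratories and the same HDGF antibody as in starvation, so for INTS13 the antibody cannot be told apart from the treatment. A further INTS13 list came from wild type cells in which HDGF had been depleted by siRNAs over 72 h, again with the Bethyl antibody. Each group has 2 labelled replicates but 1 deposited list. Replicate errors therefore cannot be given, and no difference between the proteins or conditions could be tested. The 6 inputs were not analysed here. The peaks measure binding and not expression, so the identity of the cells was not checked with marker genes.

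INTS13 is a subunit of Integrator, a complex that joins RNA polymerase II shortly after it starts, cleaves the nascent RNA there and can end transcription early. The same complex makes the 3′ ends of the spliceosomal small nuclear RNAs (snRNAs). HDGF binds chromatin through a PWWP domain, a fold known in this family for contacting DNA and the methylated histone tail found over the bodies of transcribed genes.

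A peak summit was counted at a gene start or gene end when it lay within 1 kb of that boundary. A start was the outer boundary of a RefSeq gene on the side its strand gives, and 15843 of the 20037 protein-coding genes had a strand in the tables used. The promoters of 9 genes, from 250 bp before to 50 bp after the start, are printed because they carry the strongest peaks of 3 kinds of start. FBXO28, SRSF4, SPANXB1, RBM15B and MPI are the starts with the strongest INTS13 peaks among those that hold both proteins. SMARCD2 and BLTP3B lead the starts with INTS13 alone, and NBPF1 and TXLNA those with HDGF alone. The sequences are RefSeq's for GRCh38.p14 and are read 5′ to 3′ on the strand of the gene. Capitals mark the motifs searched, on either strand: the CCAAT box (CCAAT), the GC box (GGGCGG), the ETS motif (CCGGAAG), the E-box (CACGTG), the MAZ motif (GGGAGGGG) and the first 9 letters of the YY1 element (AAGATGGCG). SPANXB1 belongs to a family of near-identical genes on chromosome X and NBPF1 to a family of near-identical copies on chromosome 1, so the placing of reads at both is uncertain.
FBXO28: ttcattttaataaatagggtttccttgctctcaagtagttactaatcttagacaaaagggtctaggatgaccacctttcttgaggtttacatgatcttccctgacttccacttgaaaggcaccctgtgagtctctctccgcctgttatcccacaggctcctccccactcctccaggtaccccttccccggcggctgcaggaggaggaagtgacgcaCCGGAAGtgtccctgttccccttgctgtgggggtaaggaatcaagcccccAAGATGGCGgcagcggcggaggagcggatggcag
SRSF4: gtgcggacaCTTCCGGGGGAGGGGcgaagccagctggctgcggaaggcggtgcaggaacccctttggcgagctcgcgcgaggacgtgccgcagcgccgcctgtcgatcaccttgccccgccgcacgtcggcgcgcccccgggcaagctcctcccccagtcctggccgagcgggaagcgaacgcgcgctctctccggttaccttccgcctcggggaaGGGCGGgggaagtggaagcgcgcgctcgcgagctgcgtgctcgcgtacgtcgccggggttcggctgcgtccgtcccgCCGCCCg
SPANXB1: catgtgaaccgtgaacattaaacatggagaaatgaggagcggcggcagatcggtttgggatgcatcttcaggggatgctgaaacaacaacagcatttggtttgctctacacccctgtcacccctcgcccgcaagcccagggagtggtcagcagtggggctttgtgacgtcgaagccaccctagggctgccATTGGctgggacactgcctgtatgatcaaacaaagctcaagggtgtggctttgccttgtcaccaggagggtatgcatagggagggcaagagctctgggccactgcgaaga
RBM15B: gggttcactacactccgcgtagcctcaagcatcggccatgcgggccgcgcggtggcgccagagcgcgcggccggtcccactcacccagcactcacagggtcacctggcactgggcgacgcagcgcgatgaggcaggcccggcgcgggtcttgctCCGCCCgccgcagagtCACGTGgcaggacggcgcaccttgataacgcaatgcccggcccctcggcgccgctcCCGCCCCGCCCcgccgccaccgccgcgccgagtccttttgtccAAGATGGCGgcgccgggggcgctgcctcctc
MPI: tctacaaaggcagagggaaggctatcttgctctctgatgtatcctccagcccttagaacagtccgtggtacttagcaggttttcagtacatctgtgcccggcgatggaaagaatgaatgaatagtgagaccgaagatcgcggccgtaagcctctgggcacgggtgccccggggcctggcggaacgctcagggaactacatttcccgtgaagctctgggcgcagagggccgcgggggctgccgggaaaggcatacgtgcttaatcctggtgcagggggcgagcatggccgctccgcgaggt
SMARCD2: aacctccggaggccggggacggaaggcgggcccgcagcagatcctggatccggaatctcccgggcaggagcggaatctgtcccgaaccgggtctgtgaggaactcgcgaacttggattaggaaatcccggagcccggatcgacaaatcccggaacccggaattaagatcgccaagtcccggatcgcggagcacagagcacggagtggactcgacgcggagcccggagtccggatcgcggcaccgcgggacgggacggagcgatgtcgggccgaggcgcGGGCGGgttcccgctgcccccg
BLTP3B: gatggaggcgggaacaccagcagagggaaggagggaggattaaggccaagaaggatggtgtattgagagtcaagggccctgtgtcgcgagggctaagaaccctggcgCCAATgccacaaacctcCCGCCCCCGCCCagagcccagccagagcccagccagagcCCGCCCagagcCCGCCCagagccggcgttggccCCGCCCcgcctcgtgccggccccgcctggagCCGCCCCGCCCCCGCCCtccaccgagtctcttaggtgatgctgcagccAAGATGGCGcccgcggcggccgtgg
NBPF1: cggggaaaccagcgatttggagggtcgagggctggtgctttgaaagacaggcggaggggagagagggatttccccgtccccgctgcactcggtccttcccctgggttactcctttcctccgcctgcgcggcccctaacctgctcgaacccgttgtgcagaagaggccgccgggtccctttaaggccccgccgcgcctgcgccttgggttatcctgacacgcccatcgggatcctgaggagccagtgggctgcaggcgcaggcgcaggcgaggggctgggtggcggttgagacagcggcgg
TXLNA: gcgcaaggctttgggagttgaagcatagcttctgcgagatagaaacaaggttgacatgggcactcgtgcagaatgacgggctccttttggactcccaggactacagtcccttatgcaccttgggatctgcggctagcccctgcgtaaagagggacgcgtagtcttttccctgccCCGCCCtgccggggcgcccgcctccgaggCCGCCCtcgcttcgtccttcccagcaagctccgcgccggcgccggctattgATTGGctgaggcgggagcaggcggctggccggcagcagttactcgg

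The positions are chr1:224113861-224114160 (plus strand) for FBXO28, chr1:29181851-29182150 (minus) for SRSF4, chrX:141002344-141002643 (plus) for SPANXB1, chr3:51391035-51391334 (plus) for RBM15B and chr15:74889792-74890091 (plus) for MPI. They are chr17:63842636-63842935 (minus) for SMARCD2, chr12:100142825-100143124 (minus) for BLTP3B, chr1:16613515-16613814 (minus) for NBPF1 and chr1:32179425-32179724 (plus) for TXLNA. FBXO28, RBM15B and BLTP3B carry the 9 letters of the YY1 element just after the start. MPI and NBPF1 hold none of the motifs.

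At gene boundaries INTS13 marked mostly starts, and HDGF did not single out either end. Boundaries held few peaks of either protein. Of INTS13 peaks, 5.60% were at a start and 53.0% outside genes, and of HDGF peaks 3.27% and 32.7%. In this count and in the overlaps by place below, genes are protein-coding ones. Peaks outside genes can therefore lie in lncRNA genes, pseudogenes or other non-coding genes. An INTS13 summit lay at the start of 928 of the 15843 genes (5.86%) and at the end of 325 (2.05%). An HDGF summit lay at the start of 2107 genes (13.3%) and at the end of 2367 (14.9%). Of the 1203 INTS13 peaks assigned to a gene boundary, 72.8% were at the start (interval 70.2 to 75.3), against 45.5% of the 4888 HDGF boundary peaks (interval 44.1 to 46.9). All intervals of shares are exact (Clopper-Pearson) 95% intervals that cover counting error only and treat peaks or genes as independent, which neighbouring ones are not. Every start in the promoter table was also counted instead of the outer boundary alone, a choice made after seeing the data. The share was then 75.2% for INTS13 and 52.4% for HDGF. This setting adds start positions but no end positions, which by itself tends to raise the start share. It therefore cannot show that HDGF favours starts.

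INTS13 sat close to the start, whereas HDGF was spread over the whole window. In bins of 500 bp, 539 INTS13 summits lay in the first bin downstream of a start and 249 in the first bin upstream, against 76 in the next bin upstream and 125 in the next downstream. The same 4 bins, from upstream to downstream, held 602, 613, 595 and 750 HDGF summits. The strongest INTS13 summit of a start was a median of 61 bp downstream of it, and 554 of the 928 (59.7%) were within 250 bp. The HDGF median was 84 bp downstream, but the middle 50% of summits ran from 448 bp upstream to 587 bp downstream, and 523 of 2107 (24.8%) were within 250 bp. At gene ends the summits of both were spread, with 16% of the 325 INTS13 ends and 18.6% of the 2367 HDGF ends within 250 bp. HDGF summits were most frequent upstream of the end, with 895 in the bin from 1 kb to 500 bp before it and 672 in the first bin after it.

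**Figure D1:**
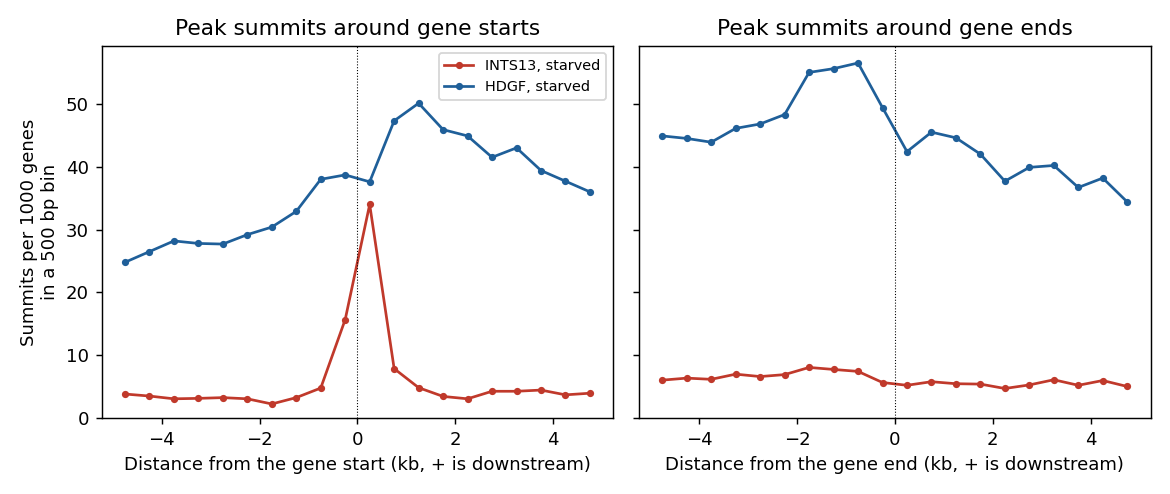
Summits per 1000 protein-coding genes in bins of 500 bp, by distance in kb from gene starts (left panel) and gene ends (right panel), for INTS13 and HDGF in starved cells. INTS13 reaches 34.0 in the first bin after the start and 15.7 in the bin before it, and HDGF has no such spike at either boundary.

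In the control pair the same measure gave 592 genes with INTS13 at the start (3.74%) and 332 at the end, and 1642 with HDGF at the start (10.4%) and 2258 at the end. HDGF coverage at the exact starts of the 928 genes also differed between its lists. The start base lay inside an HDGF interval at 22.3% of these genes in the starvation list and at 5.06% in the control list. At 2 kb downstream it was 20.7% in the starvation list and 34.7% in the control list. In the 14915 genes without INTS13 at the start, the start base was inside an HDGF interval at 2.50% in the starvation list and 0.858% in the control list, and 2 kb downstream at 4.0% and 7.31%, so the lists differed in the same directions there. The lists have unlike lengths, and 1 HDGF antibody served for both.

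Most INTS13 peaks overlapped HDGF, but those at gene starts did so less. Of all INTS13 peaks, 11265 of 15639 shared at least 1 base with an HDGF peak (72.0%, interval 71.3 to 72.7), which were 10227 of the 68138 HDGF peaks (15%, interval 14.7 to 15.3). In the control pair the shares were 45.0% of INTS13 and 10.8% of HDGF peaks. The HDGF starvation list covers 34.6 Mb and the INTS13 list 8.25 Mb, and with the HDGF list shortened to the length of the INTS13 list 44.7% of INTS13 peaks overlapped. The overlapping INTS13 peaks had a median width of 406 bp and the others 289 bp, and the overlapping HDGF peaks 670 bp and the others 333 bp, so wider peaks overlapped more.

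By place, 357 of the 876 INTS13 peaks at starts overlapped HDGF (40.8%, interval 37.5 to 44.1). At ends it was 277 of 327 (84.7%, interval 80.3 to 88.4), and in gene interiors 3941 of 5013 (78.6%, interval 77.5 to 79.7). Outside genes it was 5902 of 8292 (71.2%, interval 70.2 to 72.2). The remaining 1131 peaks were in or near protein-coding genes without a strand. Among strong INTS13 peaks, meaning those with a −log10 q no lower than 10, 25 of 76 at starts overlapped HDGF (32.9%, interval 22.5 to 44.6). Outside genes it was 291 of 302 (96.4%, interval 93.6 to 98.2), and whether the inputs also peak there was not tested. The control pair had the same order of places, with 27.1% at starts, 65.0% at ends, 50.5% in interiors and 42.1% outside genes.

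HDGF coverage in starved cells was highest at the INTS13 summit and fell off within 1 kb at ends, in interiors and outside genes, and at starts the drop was smaller. Over all INTS13 summits, 60.1% lay inside an HDGF interval, and positions 250 bp away did so at 49.0%, 1 kb away at 32.8% and 2 kb away at 31.1%. Much HDGF therefore lay around INTS13 peaks as well as on them. At ends the share was 78.0% at the summit and 48.0% at 2 kb, and in interiors 67.5% and 37.7%. At starts it was 28.9% at the summit, 23.1% at 1 kb and 19.9% at 2 kb. At strong starts HDGF covered 15.8% of the 76 summits and 24.3% of the positions 1 kb away. In the control pair, over all INTS13 summits, HDGF covered 35.0% of summits and 31.5% of positions 2 kb away. At the starts of the control pair the order was turned round, with 17% at the summit, 28.4% at 1 kb and 34.2% at 2 kb.

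**Figure D2:**
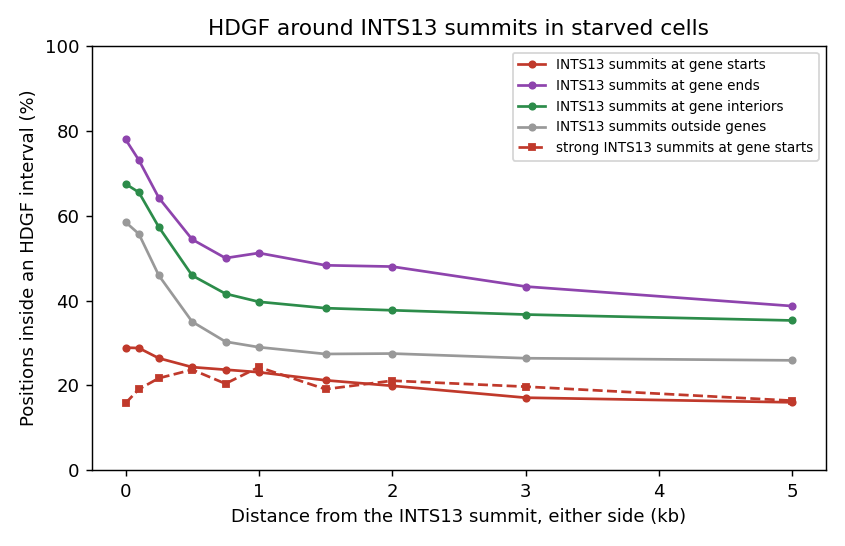
Share of positions inside an HDGF starvation interval (%), by distance in kb on either side of INTS13 starvation summits. Summits are at gene starts, at gene ends, in gene interiors and outside genes, where genes are protein-coding. Strong INTS13 summits at starts are a dashed line. The lines for ends, interiors and outside genes drop away from the summit, from 78.0%, 67.5% and 58.5%, and the line for starts begins at 28.9%.

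Where the intervals did overlap, the distance to the nearest overlapping HDGF summit was read. The overlap itself keeps this distance short, since such peaks had median widths of 406 bp for INTS13 and 670 bp for HDGF. The median distance over 11265 pairs was 204 bp (interval 199 to 210), with 16.3% within 50 bp, 56.8% within 250 bp and 90.5% within 1 kb. It was 240 bp at starts, 254 bp at ends, 229 bp in interiors and 187 bp outside genes. In the control pair the median was 300 bp. Among pairs strong in both lists it was 40 bp over 269 pairs, and these were not compared with the inputs.

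The pairs with the strongest INTS13 peaks lay outside genes, and the summits were within 12 bp of each other at 4 of the 5. The nearest genes of the 5 were 179670 to 3717083 bp away. Whether the inputs also peak at these places was not tested, so the close summits do not by themselves show binding of both proteins. At chr1:125178888-125180754 the INTS13 fold over background at the summit was 23.2 and the HDGF fold 35.9, with summits 12 bp apart. At chr16:46388572-46392279 the folds were also 23.2 and 35.9, with summits 243 bp apart. At chr17:26603642-26604529 they were 23.2 for INTS13 and 35.2 for HDGF, and the summits were 4 bp apart. The pairs at chr16:46398255-46401635 and chr3:93470340-93470815 had INTS13 folds of 23.1 and 23.1, HDGF folds of 35.1 and 35.3, and summits 1 and 3 bp apart. The intervals given are those of INTS13. The highest summit held 400 reads in both lists, so the top folds may be cut off there. Folds are the authors' values and are used only within a list. Every fold in a list had a single p-value, so peaks were scored against 1 background for the whole list and regions with more DNA were not corrected for.

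Peak strength went with place in INTS13 and with overlap in both lists. In 10 classes of equal size by fold, 2.94% of INTS13 peaks in the weakest class and 15.6% in the strongest were at a gene start. For HDGF the same shares were 2.73% and 3.46%. The share of INTS13 peaks that overlapped HDGF was 59.1% in the weakest class and 83.7% in the strongest, and the share of HDGF peaks that overlapped INTS13 was 4.01% and 51.3%. Median widths over the same classes were 282 and 901 bp for INTS13 and 290 and 894 bp for HDGF.

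Peaks of both proteins were unevenly spread over the chromosomes. Chromosomes 1, 13, 21 and 22 held 67.5% of INTS13 peaks, 47.7% of HDGF peaks and 16% of the protein-coding genes with a strand. These 4 chromosomes were grouped after their values were seen. There 77.8% of INTS13 peaks overlapped HDGF and 3.09% were at a gene start, against 60.0% and 10.8% on the other chromosomes. HDGF covered 65.4% of INTS13 summits and 34.5% of positions 2 kb away on these 4, and 49.1% and 24.0% on the others, so the drop away from the summit was present in both. At gene starts, INTS13 was at 13% of genes on the 4 chromosomes and at 4.49% elsewhere, and HDGF at 28.1% and 10.5%. Chromosome 13 differed from the other members of this group, with INTS13 at 6.35% of its starts and HDGF at 8.03%. On chromosomes 1, 21 and 22 INTS13 was at 12.8%, 21.9% and 15.3% and HDGF at 28.3%, 35.0% and 42.9%.

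**Figure D3:**
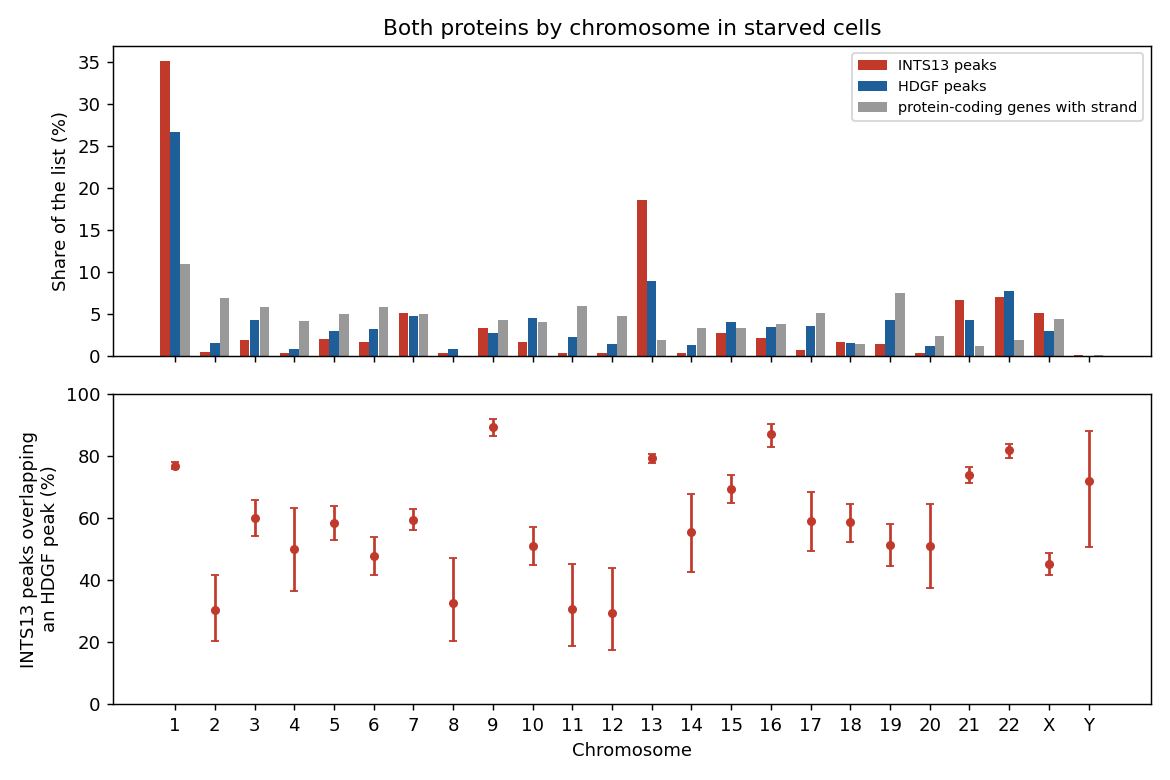
Top, share (%) of INTS13 starvation peaks, HDGF starvation peaks and protein-coding genes with a strand on each chromosome, where chromosome 8 has peaks but no gene with a strand in the tables used. Bottom, share (%) of INTS13 peaks that overlap HDGF with exact 95% intervals; chromosome 1 alone holds 35.2% of INTS13 and 26.7% of HDGF peaks, and the overlap runs from 29.4% on chromosome 12 to 89.3% on chromosome 9.

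INTS13 peaks that overlapped HDGF were also more often present in the other lists. Of the 11265, 46.8% overlapped an INTS13 control peak, 52.5% an HDGF control peak and 59.4% an INTS13 peak after HDGF depletion. In all of the other 4 lists were 30.4%. One of these is the HDGF starvation list, so peaks without HDGF cannot be in all of them. Of the 4374 without HDGF, the shares in the first 3 comparisons were 24.8%, 15.8% and 33.6%. The peaks with HDGF were also wider (median 406 against 289 bp), and the part of width in these shares was not tested. Of the 519 INTS13 peaks at gene starts without HDGF, 124 overlapped an INTS13 control peak (23.9%), 191 an INTS13 peak after HDGF depletion (36.8%) and 13 an HDGF control peak (2.50%).

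Both proteins were at the start of 461 genes (2.91% of all 15843) and at the end of 247 (1.56%). Of the 928 genes with INTS13 at the start, 49.7% had HDGF at the start (interval 46.4 to 52.9), against 11% of the 14915 genes without it. The 49.7% was 22% with lists of equal length, 32.2% in a window of 500 bp, 66.9% in one of 2500 bp and 39.1% without chromosomes 1, 13, 22 and X. HDGF was at the start and not the end of 203, at the end and not the start of 103, at both ends of 258 and at neither end of 364 (39.2%). Seen from HDGF, 21.9% of its 2107 start genes had INTS13 there. At 265 of the 461 shared starts (57.5%) the strongest peaks of the 2 proteins overlapped, and weaker peaks in the window were not compared. At the 89 genes with a strong INTS13 start, 30 had HDGF at the start (33.7%, interval 24.0 to 44.5). In the control pair HDGF was at 35.6% of the 592 INTS13 starts. INTS13 at the end went with HDGF at 247 of 325 genes (76.0%).

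The 10 shared starts with the strongest INTS13 peaks show the 2 positions side by side. FBXO28, an F-box protein of a ubiquitin ligase, had an INTS13 fold of 7.0 with the summit 37 bp downstream of the start, and an HDGF fold of 3.07 with the summit 191 bp downstream. SRSF4, an SR splicing factor, had an INTS13 fold of 6.77 at 366 bp and an HDGF fold of 3.34 at 465 bp. The intervals of both proteins overlapped at these genes. RBM15B, an RNA-binding protein of the m6A methylation machinery, had an INTS13 fold of 6.48 at 47 bp, and its HDGF summit (fold 3.34) was 884 bp downstream in a separate interval. MPI, the enzyme that links glucose metabolism to mannose for glycosylation, had an INTS13 fold of 6.42 at 59 bp and an HDGF fold of 2.90 with the summit 985 bp upstream, again in a separate interval. BCL7C, a subunit of SWI/SNF chromatin remodellers, had INTS13 at 120 bp (fold 6.25) and HDGF at 465 bp (fold 3.88). COX20, which helps assemble cytochrome c oxidase, had INTS13 at 87 bp (fold 5.90) and HDGF 187 bp upstream (fold 2.90). At RUFY1, SLC71A1 and TXNRD2, a mitochondrial thioredoxin reductase, INTS13 lay 112, 14 and 23 bp downstream, and HDGF 729, 375 and 766 bp upstream. SPANXB1 had the highest HDGF fold of the 10, 6.03, with an INTS13 fold of 6.65, and as a short gene its INTS13 peak was counted at both ends. The INTS13 summit lay downstream of the start at every one of the 10 genes, and the HDGF summit at 5 and upstream at the other 5.

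**Figure D4:**
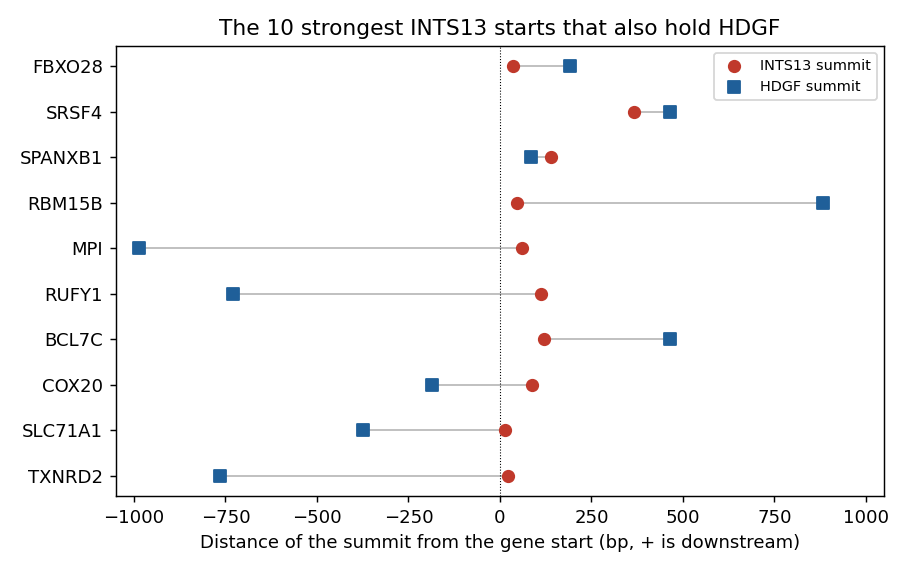
Distance in bp of the strongest INTS13 summit (circles) and HDGF summit (squares) from the gene start, for the 10 genes with the strongest INTS13 peaks among those that hold both proteins at the start. INTS13 summits lie from 14 to 366 bp downstream, and HDGF summits from 985 bp upstream to 884 bp downstream.

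INTS13 alone marked 467 starts, and these included its strongest ones. Alone means that no HDGF summit lay within 1 kb, and an HDGF interval may still reach into that window. Of the 928 INTS13 starts, 521 had an HDGF base in the window and 461 an HDGF summit. SMARCD2, a SWI/SNF subunit, had the highest INTS13 fold of any start among these classes, 8.79, with the summit 45 bp upstream, and HDGF at its end only (fold 3.07). BLTP3B, a lipid transfer protein, had a fold of 8.21 at 50 bp and no HDGF at either end. ABHD5, which activates triglyceride breakdown, had a fold of 8.16 at 109 bp, and the same peak was counted for the divergent neighbour ANO10. TAF4, a TFIID subunit, had a fold of 7.52 with the summit 218 bp upstream. GFER, a sulfhydryl oxidase of the mitochondrial intermembrane space, and GTF3C6, a subunit of the polymerase III factor TFIIIC, had folds of 6.48 at 35 bp and 6.25 at 33 bp. MMS19, which delivers iron-sulfur clusters, and its neighbour UBTD1 shared 1 peak (fold 6.48), and at KCNJ4, a potassium channel, the summit was 964 bp upstream (fold 6.54). Without HDGF, 64.7% of the 467 INTS13 summits were within 250 bp of the start, and with HDGF 54.7% of the 461.

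HDGF alone marked 1646 starts, with summits spread over the window. TXLNA had an HDGF fold of 4.69 at 888 bp downstream, SERBP1, an mRNA-binding protein, 4.51 at 699 bp, and TBX6, a T-box transcription factor, 4.51 at 589 bp. SQSTM1, the autophagy receptor p62, had a fold of 4.33 at 832 bp upstream, with a second peak at its end (3.88). CORO1A, an actin-binding protein, had 4.24 at 657 bp upstream, RBM26 4.15 at 264 bp upstream and TBC1D10B 4.06 at 801 bp downstream. NBPF1 had the highest fold, 6.03, at 755 bp. POLGARF and MIURF, with folds of 4.33 and 4.15, are short genes that overlap a longer one, so their peaks cannot be assigned to them. Of the 1646 HDGF summits, 23.8% were within 250 bp of the start, close to what an even spread over the 1 kb window would give.

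At gene ends INTS13 peaks were few and mostly weak. After SPANXB1, the strongest were at WDR33, a subunit of the cleavage and polyadenylation machinery, and IQSEC2, a synaptic exchange factor, both with a fold of 4.74 and no HDGF at either end. PPOX, an enzyme of haem synthesis, had an INTS13 fold of 4.34 at 557 bp before its end and an HDGF fold of 3.43 at 49 bp before it. SNAP47 had an INTS13 fold of 4.28 at 448 bp before the end and an HDGF fold of 4.96 at 634 bp before it.

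Gene lists were read against the background shares above, with no test of any list. Stress response and amino acid supply genes had INTS13 at the start of 6 of 35 members, HDGF at the start of 12 and both at 5. SESN2, an inhibitor of mTORC1, had INTS13 at 33 bp (fold 4.57) and HDGF 504 bp upstream (fold 3.61), and both proteins at its end. XBP1, a transcription factor of the unfolded protein response, had INTS13 at 4 bp (fold 4.28) and HDGF at 289 bp (fold 3.52). DDIT4, another mTORC1 inhibitor, had INTS13 at 34 bp (fold 2.89) and HDGF at 982 bp (fold 3.52), and SLC7A5, an amino acid transporter, INTS13 at 7 bp (fold 3.36) and HDGF 461 bp upstream (fold 2.54). STC2 was the fifth with both. CEBPB had INTS13 alone at the start (fold 3.18), and ATF4, the central factor of this response, had HDGF alone, with a fold of 3.34 at 579 bp. PPP1R15A, DDIT3 and ATF5 also had HDGF alone. INTS13 was at the start of 17.1% of the list (interval 6.56 to 33.6) and HDGF at 34.3% (interval 19.1 to 52.2), both above the shares of all genes, and each rests on few genes.

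Ribosomal protein genes had HDGF above the share of all genes and INTS13 near it. INTS13 was at the start of 3 of 63 members (4.76%, interval 0.993 to 13.3, against 5.86% of all genes) and at no end. HDGF was at the start of 22 (34.9%, interval 23.3 to 48.0, against 13.3% of all genes). It was at the end of 25 (39.7%, interval 27.6 to 52.8, against 14.9%). RPL10 and RPL39 had both proteins, with INTS13 folds of 3.07 and 3.13 and HDGF folds of 3.07 and 2.98, and RPL6 had INTS13 alone (fold 3.07, 54 bp). Members with HDGF alone at the start included RPL12 (fold 3.25), RPS15 (3.16), RPL36A (3.07) and RPS4X (2.98). Ribosomal protein genes have many processed copies elsewhere in the genome, so the placing of reads within them is less certain. Translation factor genes had INTS13 at the start of 0 of 34 (interval 0 to 10.3). HDGF was at 6 (17.6%, interval 6.76 to 34.5), among them EIF3I (fold 3.79) and EIF1 (3.70). Aminoacyl-tRNA synthetase genes had INTS13 at 1 of 16 (6.25%, interval 0.158 to 30.2), KARS1 (fold 3.70, 22 bp), and HDGF at 3 (18.8%, interval 4.05 to 45.6). The intervals of both lists include the shares of all genes. Replication-dependent histone genes, whose transcripts end without a poly(A) tail, had neither protein at either end at any of 53 members. The interval of each share is 0 to 6.72. At starts it includes the 5.86% of all genes for INTS13 but not the 13.3% for HDGF.

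Polymerase II pausing and termination genes had INTS13 at the start of 4 of 37 (10.8%, interval 3.03 to 25.4, against 5.86% of all genes) and HDGF at the start of 1 (2.70%, interval 0.0684 to 14.2, against 13.3%). Both intervals include the share of all genes. CPSF2, a subunit of the machinery that cleaves pre-mRNA, had an INTS13 fold of 4.98 at 48 bp, and POLR2A, the largest subunit of polymerase II, had 4.92 at 43 bp. NELFCD, a subunit of the pausing factor NELF, had 3.41 at 32 bp, and MEPCE, which caps the 7SK RNA, 3.13 at 28 bp. None of these starts held an HDGF summit, and NELFB was the member with HDGF (fold 2.45, 917 bp). At the ends of the same list HDGF was at 9 of 37 (24.3%, interval 11.8 to 41.2, against 14.9% of all genes). INTS13 was at the end of 1, WDR33 (2.70%, interval 0.0684 to 14.2, against 2.05%). These end intervals also include the shares of all genes. The INTS13 summit lay 28 to 48 bp downstream of the start at all 4 genes.

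Immediate early genes had INTS13 at 5 of 25 starts and HDGF at 4. JUN had INTS13 at 49 bp (fold 3.47) and HDGF 198 bp upstream (3.07), and JUND had both in the upstream window. SRF (INTS13 fold 4.11), DUSP1 (2.61) and BTG2 (2.55) had INTS13 alone. Cell cycle and replication genes had INTS13 at 4 of 32 and HDGF at 4 (12.5% each, interval 3.51 to 29.0). CCND3 (INTS13 fold 5.55) and CDC25C (5.32) had INTS13 alone, CDC25A (3.93) and CCNE1 (3.47) had both, and CDKN1A and CCNB1 had HDGF alone. SR protein and hnRNP genes had INTS13 at 4 of 29 (13.8%, interval 3.89 to 31.7), SRSF4, HNRNPU (fold 3.41), HNRNPDL and HNRNPAB. HDGF was at 7 (24.1%, interval 10.3 to 43.5). In these lists only the INTS13 interval of immediate early genes lies above the share of all genes. Many lists were read, so single intervals can miss that share by counting error alone. JUN and BTG2 are on chromosome 1, where INTS13 was at 12.8% of all starts.

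Genes of metabolism had more HDGF than INTS13 at both ends, as all genes did. INTS13 start shares ran from 0% (autophagy and lysosome) to 10.3% (oxidative phosphorylation), and every interval includes the 5.86% of all genes. HDGF start shares ran from 12.9% (autophagy and lysosome) to 31.8% (cholesterol and fatty acid synthesis), against 13.3% of all genes. Only the interval of the cholesterol list (13.9 to 54.9) lies above that share. Glycolysis and glucose uptake genes had INTS13 at the start of 1 of 22, PKM (fold 4.17, 375 bp), with HDGF at 470 bp (fold 2.45). HDGF was at 4 starts and 7 ends. The end share of 31.8% has an interval of 13.9 to 54.9, which includes the 14.9% of all genes. PFKL had INTS13 (fold 3.59) and HDGF (4.15) at its end. Oxidative phosphorylation genes had INTS13 at 3 of 29, and all 3 also had HDGF: ATP5PO (INTS13 fold 3.70, 45 bp), NDUFB10 (3.36, 40 bp) and NDUFA1 (3.24, 99 bp upstream). AMPK and mTOR pathway genes had INTS13 at 2 of 20, PRKAA2, a catalytic AMPK subunit (fold 3.47, 11 bp), with HDGF at 773 bp, and RPS6KB1, the S6 kinase (3.41, 36 bp), without. Cholesterol and fatty acid synthesis genes had INTS13 at 2 of 22, SREBF2 (fold 3.93, 20 bp) and INSIG1 (2.66), both without HDGF at the start, and HDGF at 7 others, among them PMVK (3.43), TM7SF2, SCAP and FDPS. Autophagy and lysosome genes had INTS13 at 0 of 31 and HDGF at 4, SQSTM1, CTSD (fold 3.16), CTSA and NPC1.

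**Figure D5:**
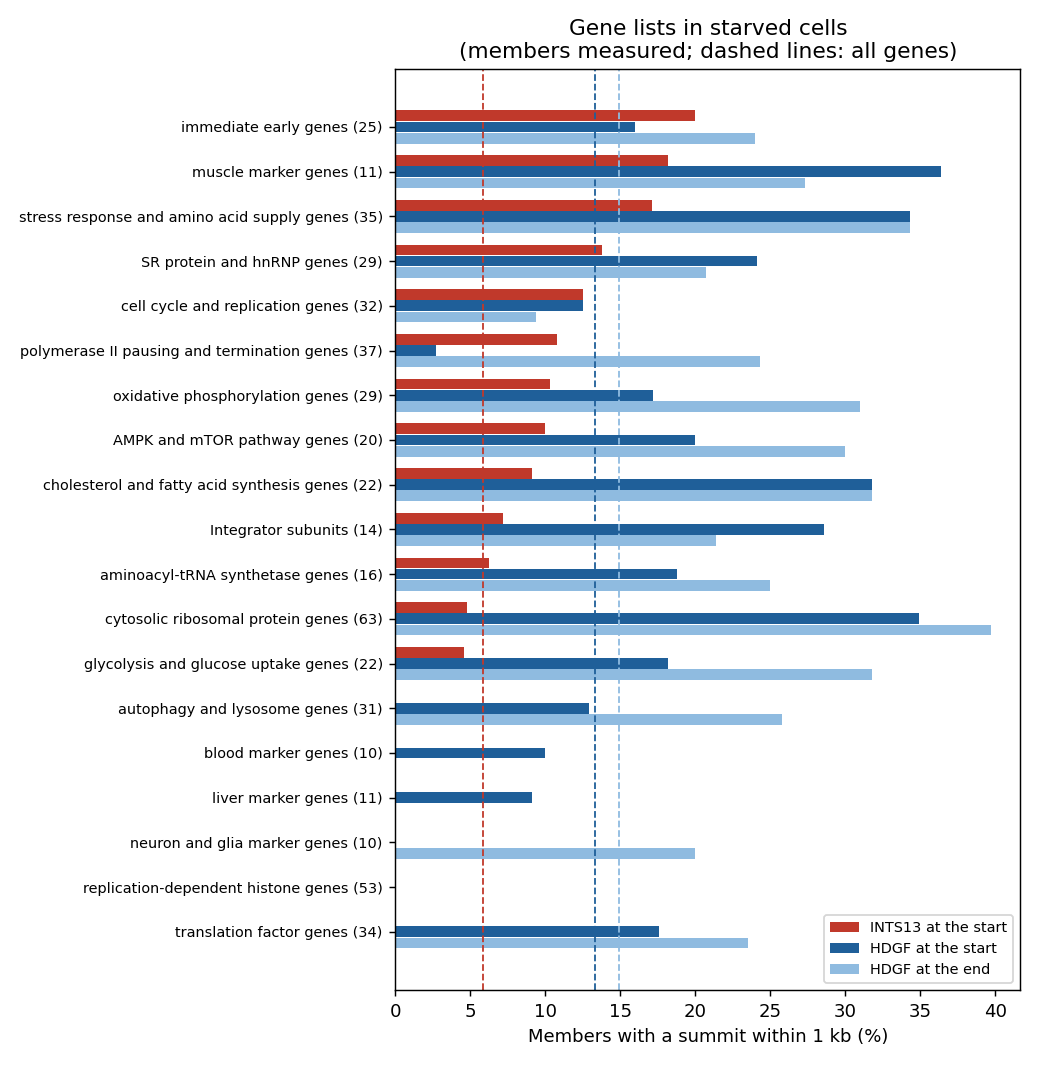
Share (%) of the members of each gene list with an INTS13 summit at the start, an HDGF summit at the start and an HDGF summit at the end in starved cells, with the number of members measured in brackets and the shares of all 15843 genes as dashed lines (5.86%, 13.3% and 14.9%). The HDGF family, with 5 members, is left out, and an absent bar stands for 0 members.

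INTS13 was at the start of 1 of 14 Integrator subunit genes (7.14%) and 1 of 5 HDGF family genes, too few to set against the 5.86% of all genes. INTS14 held both proteins at the start, with an INTS13 fold of 3.07 at 38 bp and an HDGF fold of 2.98 at 499 bp upstream. HDGF alone was at the starts of NABP2 (fold 2.81), INTS11 (2.63) and INTS15 (2.63), and both proteins were at the end of INTS1, with an INTS13 fold of 2.61 and an HDGF fold of 2.98. BRAT1 had HDGF at its end. In the HDGF family HDGFL3 had INTS13 at the start (fold 2.84, 437 bp) and the HDGF gene had HDGF 792 bp upstream of its own start (fold 3.25). Genes of tissues other than kidney had INTS13 at 0 of 11 liver, 0 of 10 blood, 2 of 11 muscle and 0 of 10 neuron and glia starts, and HDGF at 1, 1, 4 and 0. The muscle shares were 18.2% for INTS13 (interval 2.28 to 51.8) and 36.4% for HDGF (interval 10.9 to 69.2). Every start interval of these tissue lists includes the share of all genes. The muscle genes with both were ACTA1 (INTS13 fold 4.05, HDGF fold 4.33) and ACTN2, both on chromosome 1.

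At the snRNA genes, the classical targets of Integrator, a summit within 1 kb of the gene was counted. INTS13 was at 3 of 19 in starved cells: RNU11 (fold 4.28), RNU2-2 (4.05) and RNU12 (3.07). The RNU12 summit was 680 bp from the middle of the gene, in an interval that does not meet the gene. Over all 154 snRNA genes INTS13 was at 6 (3.90%). In the INTS13 control list it was at 12 of 19, with RNU11 at a fold of 9.19 and RNU2-2 at 8.11, from the other antibody. HDGF was at 2 in starved cells, RNU11 (fold 3.61, summit 960 bp from the middle of the gene) and RNU7-1 (2.54, 984 bp from the middle). Only RNU11 held both, and their intervals did not meet. snRNA families have near-identical copies, so reads at a single gene are uncertain, and an absent peak does not show absent binding. Small RNA genes of polymerase III had INTS13 at 0 of 19 and HDGF at 2, RNY5 (fold 3.25) and RNY4 (2.81).

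The promoters of the 3 kinds of start and of all genes were searched for 9 motifs on both strands. Beside those given with the sequences, these were the TATA box (TATAAA), the CRE (TGACGTCA), the NRF1 palindrome and the full 10 letters of the YY1 element. The YY1 element, a sequence known from starts where the factor YY1 binds just downstream, was in 38 of 467 promoters with INTS13 alone (8.14%, interval 5.82 to 11). It was in 14 of 461 with both (3.04%, interval 1.67 to 5.04), 30 of 1646 with HDGF alone (1.82%, interval 1.23 to 2.59) and 298 of all 15843 (1.88%). Among strong INTS13 starts it was in 13 of 89 (14.6%, interval 8.01 to 23.7). The first 9 letters alone were in 9.42% of promoters with INTS13 alone, 3.69% with both, 2.79% with HDGF alone and 2.69% of all. Every 10-letter match also holds the 9 letters, and the GC box can overlap the MAZ and ETS matches.

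In the 52 genes with INTS13 at the start and the YY1 element, the element lay after the start at 43 of the 51 where the promoter begins at the gene boundary, at a median of 22 bp. It read along the strand of the gene at 41 of the 51. Among all genes with the element, these included, it lay after the start at 213 of 279, at a median of 18 bp. It read along the strand at 217 of the 279, so place and strand are not particular to INTS13 starts. The INTS13 summit was within 250 bp of the element at 46 of the 51, at a median distance of 28 bp. Over all its starts the INTS13 summit was a median of 61 bp downstream, and the distance was not compared with that to other motifs. The median INTS13 fold was 3.70 with the element and 3.24 in the 876 genes without it, and HDGF was at the start of 26.9% with it and 51.0% without it. FBXO28 and RBM15B among the printed promoters are examples, with INTS13 summits 37 and 47 bp downstream of the start, and both also held HDGF. BLTP3B holds the first 9 letters, with the INTS13 summit at 50 bp and no HDGF.

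The other motifs are given in the same order of sets. The GC box was in 72.4% of promoters with INTS13 alone, 66.6% with both, 67.7% with HDGF alone and 58.3% of all. The ETS motif was in 13.7%, 11.5%, 15.2% and 14.2%, the E-box in 11.8%, 10.6%, 9.96% and 8.82%, and the MAZ motif in 18.2%, 18.9%, 21.3% and 17%. The CCAAT box was in 35.1%, 28.0%, 31.0% and 36.4%, the TATA box in 7.07%, 6.94%, 6.01% and 9.75%, the CRE in 2.36%, 1.30%, 2.49% and 2.56%, and the NRF1 palindrome in 2.14%, 1.30%, 2.31% and 1.77%. Median GC content was 68.0%, 65.7%, 65.3% and 62.7% in the same order. These counts describe letters in a window of 300 bases and not sites of binding, and the part of base composition in them was not tested.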

How the data were processed

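The authors deposited 1 MACS2 peak list per ChIP group. FastQC, Trimmomatic, Bowtie, Picard, MACS2 and the build hg38 are named in the submitters' processing notes. The deposited peak names hold the value 0.05. Not given in the sources used here are versions, other settings, the joining of replicates and the use of inputs. The authors' values for each deposited peak are an integer score, the fold over background at its summit, and its −log10 p-value and −log10 q-value, which served within a list alone to rank and select peaks. Read totals are unknown. From the folds and p-values, the background was 15.2 reads for INTS13 and 9.84 for HDGF in starved cells (7.41 in both after the scaling the values imply).

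Sharing 1 base or more counted as overlap. Genes and strands came from RefSeq tables of GRCh38.p14, the same assembly. All 671 listed genes matched by symbol or synonym and 508 had a strand. Genes shorter than 2 windows (923) can have 1 peak counted at both ends. Named genes were the 10 with the highest −log10 q of INTS13 (HDGF for HDGF alone) in each kind of start, the 5 with the highest INTS13 value at the end, every snRNA, Integrator and HDGF family gene with a peak, and up to 4 members per class of each other list. STC2 was added to name a count of 5 in full. The members and lists were chosen with earlier results of these data known. The overlap and distance functions were tested on simulated data and passed 6 of 6 checks. Alternatives were the window, the overlap rule, lists of equal length, a stricter −log10 q, leaving out chromosomes and leaving out peaks found in all 5 lists. No column was without a group. Python 3.11.15, pandas 2.3.3, NumPy 2.4.6 and SciPy 1.17.1 were used.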

Additional observations from a re-analysis of the deposited data

How the results depend on the processing

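The share of INTS13 peaks that overlapped HDGF (72.0%) was 44.7% with lists of equal length, 64.0% with a −log10 q of at least 10, 64.9% without chromosomes 1, 13, 22 and X, 55.2% without peaks in all 5 lists, 27.0% where at least 50% of both intervals had to be shared and 41.4% for summits within 250 bp. Under the same 6 settings in the same order the share of HDGF peaks (15%) was 36.2%, 48.7%, 8.65%, 10.1%, 6.20% and 9.52%, and under the first 4 the median summit distance (204 bp) was 256, 40, 197 and 175 bp. Genes with HDGF at the start (2107) numbered 1166 in a window of 500 bp, 3568 in one of 2500 bp, 549 with lists of equal length and 1345 without the 4 chromosomes. Genes with both (461) numbered 251, 718, 204 and 224 in that order, and with INTS13 (928) 573 without the 4 chromosomes. The start share of INTS13 boundary peaks (72.8%) was 82.1%, 58.7%, 69.4% and 77.1% with windows of 500 and 2500 bp, with any base of a peak counted, and without the 4 chromosomes. That of HDGF (45.5%) was 42.5% with lists of equal length, 43.0% without the 4 chromosomes and 52.4% with every start in the promoter table. Of 52 alternative values, 37 moved beyond the interval, or by over 1.5 times for a count, and the cause was not tested. The 9-letter motifs and the promoter-table starts were chosen after seeing the data. No paired analysis was possible because each group has 1 deposited list, and no replicate could be left out.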

Other observations

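Summits within 1 kb were also counted at other kinds of gene, where the HDGF list is the longer one and protein-coding starts had INTS13 at 5.86% and HDGF at 13.3%. Of 154 snRNA genes INTS13 was at 6 (3.90%) and HDGF at 7 (4.55%). Of 443 tRNA genes INTS13 was at 5 (1.13%) and HDGF at 18 (4.06%). Of 1199 snoRNA genes INTS13 was at 12 (1.00%) and HDGF at 121 (10.1%), and of 1913 miRNA genes INTS13 was at 51 (2.67%) and HDGF at 329 (17.2%). Many snoRNA and miRNA genes lie inside longer genes, so these peaks cannot be assigned to the small RNA. Of 15580 pseudogenes INTS13 was at 232 (1.49%) and HDGF at 672 (4.31%).

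Among 11462 lncRNA genes with a strand, INTS13 was at the start of 360 (3.14%) and at the end of 170 (1.48%), and HDGF at the start of 1086 (9.47%) and at the end of 725 (6.33%). Where the lncRNA start was over 5 kb from any protein-coding boundary (8554 genes), INTS13 was at the start of 170 (1.99%) and at the end of 122 (1.43%), and HDGF at the start of 650 (7.60%) and at the end of 440 (5.14%).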
